A study of Mus musculus with 6 samples.

Results

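The genes described here are those that were very high in microglia given lipopolysaccharide (LPS) while their level in untreated Cop1 knockout (KO) microglia stayed close to that in untreated wild type. They were picked from the measured counts of 6 RNA-seq libraries, and 45 of 36528 listed gene identifiers met the rule. Counts were turned into CPM, the count as a share of the file total scaled to a common depth, and averaged per group. The value L is the log2 ratio of a group mean to the untreated wild-type mean, with 1 CPM added to each. A gene was kept with an LPS mean of at least 20 CPM, an L of LPS of at least 4, and an L of Cop1 KO from -0.5 to 0.3, a range called the knockout window below. Cytokine, chemokine, guanylate-binding protein and matrix metalloproteinase symbols (those starting with Ccl, Cxcl, Il, Tnf, Csf, Gbp or Mmp), Nos2, Cd40, Traf1, Socs3 and identifiers without a symbol were left out. The same values therefore chose the genes and describe them, so the differences between groups carry no test.

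The cells were mouse brain microglia kept in vitro. The 3 groups were wild-type microglia given LPS, Cop1 KO microglia with no LPS, and wild-type microglia with no LPS, with 2 libraries each. The label of the knockout group names loxP beside the knockout. The sources used here do not give the Cre line, the age or strain of the animals, or the dose and time of LPS. They also do not say whether the 2 libraries of a group came from separate cultures, so p-values measure the spread between these libraries, which may be technical. LPS was tested in wild-type cells alone, so the response of Cop1 KO cells to LPS was not measured.

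LPS, a cell-wall component of Gram-negative bacteria, is sensed by the TLR4 receptor complex on macrophages, among them microglia, the resident macrophages of the brain. Adaptors of TLR4 switch on NF-kB and AP-1 factors, and a second branch leads to interferon, whose own signalling raises the interferon-stimulated genes. COP1 is the substrate-recognising part of a ubiquitin ligase that marks transcription factors such as c-Jun and C/EBP-beta for degradation.

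Libraries held 20568144 to 22553708 counts. Cop1 itself was at 8.4 and 9.61 CPM in the knockout libraries, against 15.2 and 13.7 CPM in untreated wild type. The difference was a log2 fold change of -0.49 (SE 0.11; edgeR's quasi-likelihood test, Benjamini-Hochberg adjusted p = 0.00016), and counts per gene do not show which exons are missing. In wild-type cells given LPS it was at 18.8 and 21.9 CPM. Microglia markers (14 genes listed, 14 found) summed to 4067 and 4098 CPM with LPS, 12180 and 12140 CPM in Cop1 KO, and 9304 and 9286 CPM in untreated wild type, and of these genes Siglech alone had no count with LPS or in Cop1 KO. Astrocyte markers (11 listed, 11 found, none at 0 in any group) summed to 745.6 and 757.2 CPM with LPS, 58.58 and 53.56 CPM in Cop1 KO, and 992.8 and 996 CPM in untreated wild type. Neuron markers (10 genes) summed to 51.31 and 51.78 CPM, 8.02 and 10.3 CPM, and 81.81 and 81.1 CPM in the same order of groups, with Nefl at 0 in Cop1 KO. Oligodendrocyte lineage markers (9 genes) summed to 131 and 123.9 CPM with LPS, 137.4 and 138.7 CPM in Cop1 KO, and 283.3 and 277.1 CPM in untreated wild type. Among them Olig1 had 56.7 and 51 CPM with LPS, 5.68 and 5.2 CPM in Cop1 KO, and 91.9 and 88.8 CPM in untreated wild type. Olig2 had 22.6 and 24.3 CPM with LPS, 1.97 and 1.56 CPM in Cop1 KO, and 33.7 and 34.6 CPM in untreated wild type, and Pdgfra 10.2 and 10.1, 0.469 and 0.414, and 16.4 and 17 CPM in the same groups. Mbp went the other way, at 92.7 and 96.6 CPM in Cop1 KO against 76 and 73.4 CPM in untreated wild type. It was the largest part of the knockout sum. Of the 8 genes of this list that were tested, edgeR called 6 lower and 1 higher in Cop1 KO. Dendritic cell markers (8 genes) summed to 245.3 and 246.9 CPM with LPS, 280.2 and 278.4 CPM in Cop1 KO, and 384.1 and 380.4 CPM in untreated wild type. Of these Xcr1, Clec9a and Ccr7 had 15.5 and 19.1, 4.68 and 6.37, and 5.72 and 6.81 CPM with LPS, against under 1 CPM in each other library. Itgax, the largest part of each sum, was lower with LPS, at 217 and 213 CPM against 380 and 377 CPM in untreated wild type. Zbtb46 had 1.89 and 1.9 CPM with LPS against 3.45 and 3.02 CPM in untreated wild type. Endothelial and mural markers (9 genes) summed to 177.1 and 174.2 CPM with LPS, 175.3 and 177.9 CPM in Cop1 KO, and 185.6 and 184.4 CPM in untreated wild type. Of the 6 tested, edgeR called 5 higher and 1 lower with LPS, and 4 higher and 1 lower in Cop1 KO. The 1 that fell was Vwf, at 39.4 and 35.8 CPM with LPS against 123 and 122 CPM in untreated wild type. Of 9 neutrophil markers S100a9, Ly6g, Elane, Mpo, Ngp and Retnlg were at 0 in all libraries, and S100a8 had 0.315 and 0.194 CPM with LPS, 0.891 and 0.552 CPM in Cop1 KO, and 0.284 and 0.266 CPM in untreated wild type. Fibroblast markers (8 genes) summed to 686.1 and 690.6 CPM with LPS, 849.8 and 848.8 CPM in Cop1 KO, and 1243 and 1258 CPM in untreated wild type. Lymphocyte markers (9 genes) summed to 6.211 and 6.466, 8.02 and 9.425, and 18.39 and 16.98 CPM in the same order. The part of these other cells in the values below was not tested. In bulk RNA, fewer cells of a type and less RNA per cell cannot be told apart.

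All 45 genes were at their highest in both LPS libraries, which lay above the other 4 libraries without overlap. Over all 15585 genes tested, edgeR called 30.2% higher and 43.4% lower with LPS, and since the rule required this rise, nothing is read from the count of members. Together the 45 genes took 1.46% ± 0.0081 of the counts with LPS, 0.051% ± 0.00082 in Cop1 KO and 0.049% ± 0.00011 in untreated wild type (SD, n = 2 libraries each). The median member was at 102 CPM with LPS, 1.04 CPM in Cop1 KO and 1.1 CPM in untreated wild type. Their L of LPS ran from 4.04 to 8.59 with a median of 4.88, beside a median of -0.58 over all genes tested. The 2 LPS libraries were close to each other for every member: the ratio of library 1 to library 2 ran from 0.909 (Has1) to 1.1 (Pou3f1). Of the 45 genes 40 are annotated as protein coding, 3 as long non-coding RNA and 2 as microRNA. Chromosome 2 holds 9 of them, and chromosomes 11 and 17 hold 5 each.

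**Figure D1:**
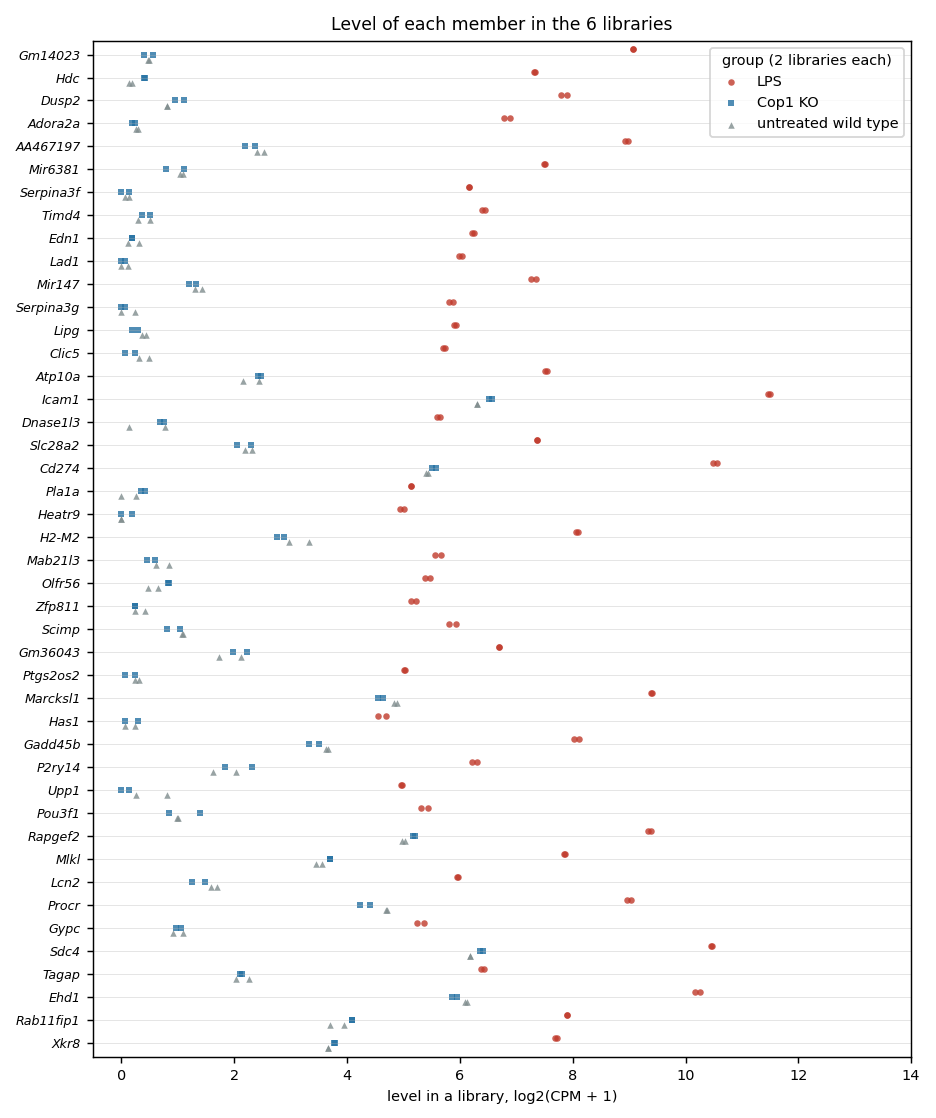
Level of 44 of the 45 members in the 6 libraries, as log2(CPM + 1) on the horizontal axis, with genes ordered from the largest L of LPS (8.59, top) to the smallest (4.04, bottom). Circles are LPS libraries, squares Cop1 KO and triangles untreated wild type; the circles stand apart to the right on every line, and squares and triangles lie close together.

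Heatr9, a HEAT-repeat protein of little-known function, marks the set and was the one member with no count in untreated wild type. It had 29.8 and 31.3 CPM with LPS, 0 and 0.138 CPM in Cop1 KO, and 0 CPM in both untreated wild-type libraries. Its 1305 counts with LPS faced 3 counts in Cop1 KO and none in untreated wild type. Set against a floor of 3 counts over the untreated group, it was at least 444-fold higher with LPS. A difference between Cop1 KO and untreated wild type was not detectable at this depth. The gene lies on the minus strand at chr11:83511679-83522494 (RefSeq coordinates, GRCm38.p6). The start of its RefSeq promoter window (chr11:83522050-83522349) lies inside this span, so the stretch shown lies within the gene's coordinates. The stretch before that start is shown because it holds an AP-1 match (letters TGANTCA, in capitals) at bases -146 to -140 from it. It is printed 5′ to 3′ on the gene's strand, chr11:83522176-83522349, and leaves out the bases next to the start, which GENCODE M21 places in an exon.
Heatr9: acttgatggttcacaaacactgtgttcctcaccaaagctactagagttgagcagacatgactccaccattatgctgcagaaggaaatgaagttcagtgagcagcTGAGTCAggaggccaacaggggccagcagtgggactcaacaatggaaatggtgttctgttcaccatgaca

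The rule's LPS part was met by 183 genes in all, and the members are the smaller share of them. Of the 183, 110 lay above the knockout window, 14 below it and 59 inside. The 59 comprise the 45 members, 13 genes left out by name and 1 without a symbol. Of the genes left out by name, 8 are given here. Nos2, the inducible nitric oxide synthase, averaged 2479 CPM with LPS, 0.463 CPM in Cop1 KO and 0.81 CPM in untreated wild type. Il6 averaged 1136, 0.369 and 0.14 CPM, and the interleukin-12 subunit gene Il12b 2126, 0.555 and 0.777 CPM, in the same order. The collagenase gene Mmp13 averaged 9619 CPM with LPS, 73.7 CPM in Cop1 KO and 79.2 CPM in untreated wild type. Il1a, Cxcl9, Traf1 and Cxcl11 were also in the window, with an L of Cop1 KO of 0.15, -0.13, 0.23 and -0.06.

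**Figure D2:**
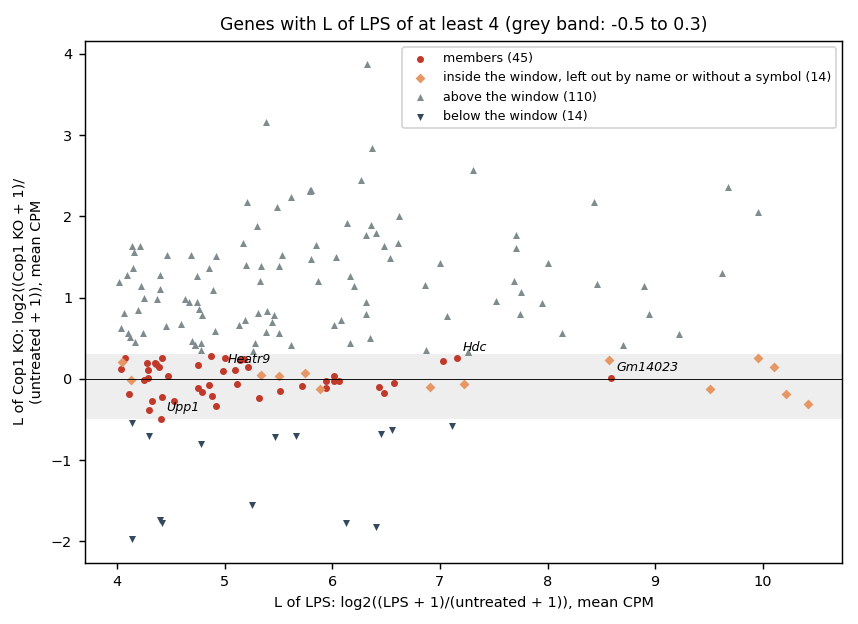
L of Cop1 KO (vertical) against L of LPS (horizontal) for the 183 genes with an LPS mean of at least 20 CPM and an L of LPS of at least 4; each point is a gene. The grey band is the knockout window from -0.5 to 0.3, with the 45 members as circles inside it, 110 genes above it and 14 below it.

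Just inside and just outside the limits the values were close. Upp1 (L of Cop1 KO -0.491) and Procr (-0.384) were the lowest inside, against Adora2b (-0.548) and Adamts4 (-0.681) outside. At the upper limit Olfr56 (0.277) and P2ry14 (0.262) were inside, and Batf2 (0.345) and Calhm6 (0.350) outside. Xkr8 (L of LPS 4.044) and Rab11fip1 (4.069) were the lowest members for LPS, and Tnip3 (3.921) and Gm34643 (3.860) fell short. Has1 at 23.6 CPM and Upp1 at 30.3 CPM had the lowest LPS means, and a minimum of 10 CPM in place of 20 CPM added no gene.

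The 10 surface receptors and adhesion proteins among the members summed to more than any other group of members: 6869 CPM with LPS, 250 CPM in Cop1 KO and 229 CPM in untreated wild type. Icam1, the adhesion ligand of leukocyte integrins, was the most abundant member by CPM, at 2893 and 2823 CPM with LPS, 94.1 and 90.3 CPM in Cop1 KO, and 78.2 and 77.7 CPM in untreated wild type. Its LPS to untreated ratio was 36.7 (95% counting interval 35.5 to 38), and both knockout libraries stood slightly above both untreated ones. Cd274, the immune checkpoint ligand PD-L1, had 1437 and 1500 CPM with LPS, 44.2 and 46.6 CPM in Cop1 KO, and 41.4 and 42.5 CPM in untreated wild type. It showed the same order, with the knockout a narrow step above untreated wild type. Sdc4, a heparan sulfate proteoglycan of the cell surface, was at 1416 and 1400 CPM, then 84 and 80.5 CPM, then 71.8 and 71.1 CPM, for LPS, Cop1 KO and untreated wild type. Procr, the endothelial protein C receptor, differed in the other direction in the knockout: it had 524 and 500 CPM with LPS, 20.1 and 17.7 CPM in Cop1 KO, and 24.9 and 25.1 CPM in untreated wild type.

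Adenosine and UDP-sugars are sensed by a pair of these receptors. Adora2a, the adenosine receptor that raises cyclic AMP, was nearly silent without LPS: it had 117 and 109 CPM with LPS, 0.141 and 0.184 CPM in Cop1 KO, and 0.189 and 0.222 CPM in untreated wild type. The 7 counts in Cop1 KO and 9 in untreated wild type leave the ratio between them at 0.789 with an interval from 0.25 to 2.38. P2ry14, the UDP-glucose receptor, had 73.1 and 78.1 CPM with LPS, 2.58 and 4 CPM in Cop1 KO, and 3.07 and 2.08 CPM in untreated wild type, with the last groups overlapping. Timd4, a receptor for phosphatidylserine on dying cells, had 83.2 and 86.3 CPM with LPS, 0.281 and 0.414 CPM in Cop1 KO, and 0.425 and 0.222 CPM in untreated wild type, also overlapping. H2-M2, a non-classical class I histocompatibility gene, averaged 156 with LPS, 2.65 in Cop1 KO and 2.78 in untreated wild type on the authors' length-scaled nRPKM values. On CPM it was at 6.33 and 5.75 in Cop1 KO, below the 9.03 and 6.83 of untreated wild type. Gypc, a membrane-skeleton glycoprotein of red cells, and the olfactory receptor gene Olfr56 completed the group, at 40 and 36.8 CPM and at 43.5 and 40.8 CPM with LPS.

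Of the 7 secreted proteins and serpins 6 averaged under 1 CPM in untreated wild type. The group summed to 403.6 CPM with LPS, 2.93 CPM in Cop1 KO and 3.24 CPM in untreated wild type. Serpina3f and Serpina3g, neighbouring genes of the antichymotrypsin family of protease inhibitors, were both near 0 without LPS. Serpina3f was at 70.4 and 70.3 CPM with LPS, 0.0938 and 0 CPM in Cop1 KO, and 0.0945 and 0.0443 CPM in untreated wild type. With 2 counts in Cop1 KO and 3 in untreated wild type, its ratio of 0.677 has an interval from 0.0565 to 5.91, and its LPS to untreated ratio of 1030 one from 350 to 4970. Serpina3g was at 58 and 54.9 CPM with LPS and at 1 count in Cop1 KO against 4 in untreated wild type. These paralogs are closely related, and reads that align to both were not counted, so their levels are uncertain.

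Edn1, the vasoconstrictor endothelin-1, had 75.2 and 73.4 CPM with LPS, 0.141 and 0.138 CPM in Cop1 KO, and 0.236 and 0.0887 CPM in untreated wild type. The knockout libraries lay between the untreated ones. The endothelial lipase gene Lipg, the chromatin-degrading nuclease gene Dnase1l3 and the phospholipase gene Pla1a had 34 to 59.8 CPM in the LPS libraries. Pla1a was at 0.328 and 0.276 CPM in Cop1 KO, above the 0.189 and 0 CPM of untreated wild type, on 13 and 4 counts. Lcn2, the siderophore-binding lipocalin and a known C/EBP and NF-kB target, had 61.8 and 60.6 CPM with LPS, 1.78 and 1.38 CPM in Cop1 KO, and 2.22 and 2 CPM in untreated wild type. It was lower in both knockout libraries than in both untreated ones.

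The 7 enzymes, transporters and membrane lipid movers summed to 820.4 CPM with LPS, 21.4 CPM in Cop1 KO and 20.4 CPM in untreated wild type. Hdc, the enzyme that makes histamine, had 158 and 160 CPM with LPS, 0.328 and 0.322 CPM in Cop1 KO, and 0.0945 and 0.133 CPM in untreated wild type. Its 14 counts in Cop1 KO against 5 in untreated wild type gave a ratio of 2.84 with an interval from 0.967 to 10.1, a ratio that the added 1 CPM reduced to an L of 0.25. Upp1, which splits uridine, was the opposite case: 30.6 and 29.9 CPM with LPS, 0.0938 and 0 CPM in Cop1 KO, and 0.189 and 0.754 CPM in untreated wild type. On 2 against 21 counts its ratio was 0.0967 (interval 0.011 to 0.395), yet its L of -0.49 kept it inside the window. Slc28a2, a sodium-driven nucleoside transporter, had 164 CPM in both LPS libraries, 3.94 and 3.13 CPM in Cop1 KO, and 3.54 and 3.99 CPM in untreated wild type, with overlap.

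Atp10a and Xkr8 move phospholipids across the membrane, as a flippase and a scramblase. Atp10a had 186 and 182 CPM with LPS, 4.36 and 4.55 CPM in Cop1 KO, and 4.44 and 3.46 CPM in untreated wild type. Xkr8 had 210 and 206 CPM with LPS, 12.8 and 12.7 CPM in Cop1 KO, and 11.7 CPM in both untreated libraries. The hyaluronan synthase gene Has1 was at 22.5 and 24.7 CPM with LPS, 0.0469 and 0.23 CPM in Cop1 KO, and 0.0473 and 0.177 CPM in untreated wild type. Clic5, an intracellular chloride channel protein, had 52.3 and 51.1 CPM with LPS, on 5 counts in Cop1 KO and 14 in untreated wild type.

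The 6 members that act in signalling or cell death summed to 1522 CPM with LPS, 62.3 CPM in Cop1 KO and 58.2 CPM in untreated wild type. Dusp2, a nuclear phosphatase of MAP kinases, had 237 and 221 CPM with LPS, 0.938 and 1.15 CPM in Cop1 KO, and 0.756 and 0.754 CPM in untreated wild type. The knockout libraries were both above the untreated ones, on 45 against 33 counts. Mlkl, the executioner of necroptosis, had 229 and 231 CPM with LPS, 12 CPM in both Cop1 KO libraries, and 10.8 and 9.89 CPM in untreated wild type. Gadd45b, a stress-response protein upstream of p38, had 274 and 260 CPM with LPS and was lower in Cop1 KO (10.4 and 9.01 CPM) than in untreated wild type (11.4 and 11.6 CPM). Rapgef2, which activates the GTPase Rap, was higher in Cop1 KO (34.9 and 35.7 CPM) than in untreated wild type (31.6 and 30.5 CPM), and at 642 and 667 CPM with LPS. Scimp, a transmembrane adaptor of Toll-like receptors, and Tagap, a GTPase-activating protein, had an L of LPS of 4.79 and 4.25. Tagap shares 23.2% of its exonic bases with a gene on the opposite strand (GENCODE M21), whose reads cannot be told apart in a library without strand. The same limit holds for Cd274 (14.1%), Icam1 (11.7%) and Pou3f1 (8.57%), and for smaller shares of Rab11fip1 (4.19%) and Edn1 (1.64%).

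The 5 members of the cytoskeleton and membrane traffic summed to 3305 CPM with LPS, 161 CPM in Cop1 KO and 167 CPM in untreated wild type. Ehd1, an ATPase of endocytic recycling, had 1218 and 1153 CPM with LPS, 60.8 and 57.4 CPM in Cop1 KO, and 68.5 and 67 CPM in untreated wild type. Marcksl1, an actin-linked membrane protein, had 680 and 665 CPM with LPS, 23.9 and 22.4 CPM in Cop1 KO, and 27.6 and 28.7 CPM in untreated wild type. Both stood lower in the knockout libraries than in the untreated ones. Rab11fip1, an effector of Rab11, had 239 CPM in both LPS libraries, 16.1 CPM in both Cop1 KO libraries, and 12 and 14.5 CPM in untreated wild type. This was the other way round, with both knockout libraries higher. Lad1, an anchoring-filament protein, was near 0 without LPS: it had 2708 counts with LPS, 1 in Cop1 KO and 2 in untreated wild type.

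Among the nuclear and less characterised genes, AA467197 was the largest. Its human counterpart encodes a small mitochondrial protein. It had 483 and 502 CPM with LPS, 3.56 and 4.18 CPM in Cop1 KO, and 4.73 and 4.3 CPM in untreated wild type, with both knockout libraries lower. The microRNA gene Mir147 lies wholly within its exon on the same strand, at 152 and 162 CPM with LPS, 1.5 and 1.29 CPM in Cop1 KO, and 1.47 and 1.68 CPM in untreated wild type. Reads of the microRNA gene cannot be told apart from those of its host, so the pair is not independent. Mab21l3, the zinc finger gene Zfp811 and the POU-domain factor gene Pou3f1 had an L of LPS of 4.88, 4.85 and 4.39. Mab21l3 was lower in both Cop1 KO libraries than in both untreated ones, on 19 against 29 counts. Zfp811 (8 against 11 counts) and Pou3f1 (52 against 43) overlapped.

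The largest L of LPS among the members belonged to Gm14023, a long non-coding RNA gene beside Il1a. It had 535 CPM in both LPS libraries, 0.469 and 0.322 CPM in Cop1 KO, and 0.378 and 0.399 CPM in untreated wild type. Its LPS to untreated ratio was 1380 (interval 859 to 2360), and 17 counts fell in each of the other groups. On the opposite strand it shares 12.5% of its exonic bases with Il1a, which had 2950 and 3117 CPM with LPS, 1.97 and 2.16 CPM in Cop1 KO, and 2.08 and 1.46 CPM in untreated wild type, and without strand the shared bases cannot be told apart. Mir6381, within Gbp2 on the opposite strand, had 181 and 180 CPM with LPS, 1.17 and 0.736 CPM in Cop1 KO, and 1.13 and 1.06 CPM in untreated wild type. A share of 27.6% of its bases is exonic in Gbp2, which averaged 4318 CPM with LPS, so the same holds there. By nRPKM, which divides by length, these short microRNA models were the highest members, at 1950 for Mir6381 and 1870 for Mir147 with LPS, ahead of Icam1 at 1060. Gm36043, inside Cd274 on the opposite strand, and Ptgs2os2, a long non-coding RNA named for Ptgs2, had an L of LPS of 4.75 each. Gm36043 is not in GENCODE M21, so its exonic overlap with Cd274 was not counted. Where their exons overlap, reads of Gm36043 and Cd274 cannot be told apart.

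The mature sequences in RefSeq (GRCm38.p6) for these microRNA genes are shown because the symbols name products that were not measured: the libraries were made from polyadenylated RNA, not small RNA. They are written 5′ to 3′ with the seed (bases 2 to 8) in capitals. The entry for Mir147 is its 5p arm, and mmu-miR-147-3p is not shown.
mmu-miR-147-5p: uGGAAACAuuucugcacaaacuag
mmu-miR-6381: cAGGAUGCuggugacaugagu

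Between Cop1 KO and untreated wild type the members split in both directions. Both knockout libraries lay above both untreated ones for 12 members and below them for 13, and the libraries overlapped for 20. The matching shares over all genes were not counted. Since the window also set this comparison, nothing is read from these counts. The median L of Cop1 KO over the members was -0.02, beside -0.17 over all genes tested, and 22 members were above 0 and 23 below. The name of the set, not raised in the knockout, was set by the window on the CPM scale and is not a result. With TMM factors, which centre the bulk of genes, the fit across all genes placed 13 members higher, 2 lower and 30 in neither direction. Over all 15585 genes tested it called 28.1% higher and 30.3% lower, so the members called higher were near the share over all genes. With file totals alone, the scale of the rule, 7 members were still called higher and 6 lower, beside 2321 and 7195 of all genes tested. With median-of-ratios factors the member counts were 15 and 1, beside 5494 and 3910 of all genes tested. Because the window chose the members, these calls do not test the name. Of the 13, 12 were Icam1, Cd274, Olfr56, P2ry14, Sdc4, Pla1a, Hdc, Atp10a, Xkr8, Rapgef2, Mlkl and Rab11fip1, and the 2 called lower were Procr and Upp1. On the TMM scale the log2 fold change in Cop1 KO was 0.43 for Icam1, 0.40 for Sdc4, 0.47 for Rab11fip1 and 0.31 for Cd274. The median log2 fold change over all genes was -0.01 on that scale, -0.20 by file totals and 0.08 by median-of-ratios factors.

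How well the knockout value is known depends on the member. Of the 45 genes 21 averaged under 1 CPM in untreated wild type, and 19 did so in both Cop1 KO and untreated wild type. With 1 CPM added, a gene of that level stays near an L of 0 even when its counts differ several times over. For the 44 members with a count in untreated wild type, the plain CPM ratio of Cop1 KO to untreated wild type fell within the window for 30, above it for 6 and below it for 8. The 95% counting interval lay wholly below a ratio of 2 for 30 members and reached 2 or more for 14. Icam1, with 3969 counts in Cop1 KO and 3406 in untreated wild type, had a ratio of 1.18 (1.13 to 1.24), and Ehd1 one of 0.872 (0.827 to 0.92). Lad1, on 1 count in Cop1 KO and 2 in untreated wild type, had a ratio of 0.507 with an interval from 0.0086 to 9.75. These intervals cover counting error alone.

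**Figure D3:**
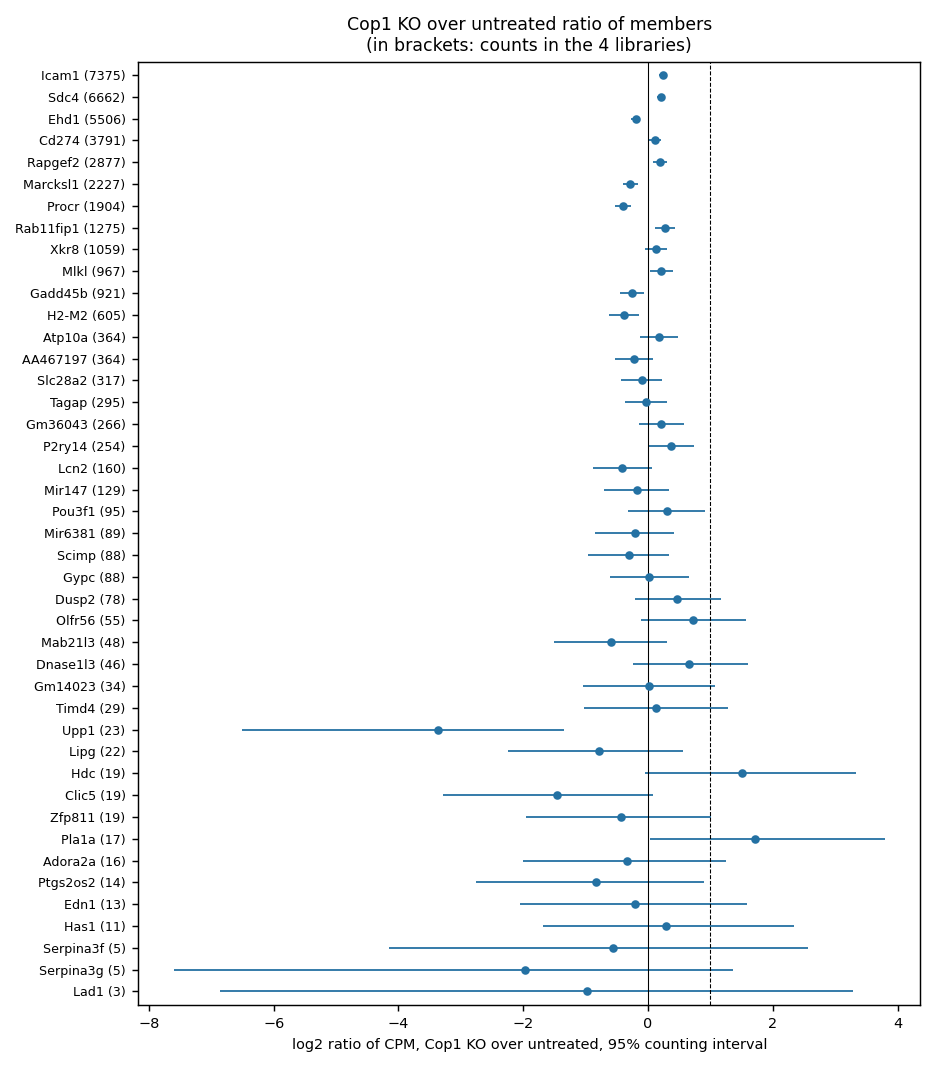
CPM ratio of Cop1 KO to untreated wild type for 43 members on a log2 axis, with the 95% counting interval as a line; members are ordered by their counts in the 4 libraries, given in brackets. The solid line marks equal levels and the dashed line a ratio of 2; intervals are short at the top (Icam1, 1.13 to 1.24) and wide at the bottom (Lad1, 0.0086 to 9.75).

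Members often had another LPS-induced gene close by. An LPS-induced gene is here any of those that meet the LPS part of the rule, and 14 of 45 members (31.1%) had another within 50 kb, as did 38 of 106 named genes above the knockout window (35.8%) and 364 of 14761 tested genes with coordinates (2.47%). For 6 members the gene bodies overlapped. The member pairs Serpina3f and Serpina3g, Cd274 and Gm36043, and AA467197 and Mir147 shared a locus. Both genes of each pair lay in the window by the rule, so nothing is read from that. Other members sat beside genes that were higher in the knockout. Heatr9 lies 3284 bp from the chemokine gene Ccl5, which had 4716 and 4438 CPM with LPS, 27.8 and 28.6 CPM in Cop1 KO, and 11.4 and 12.6 CPM in untreated wild type. Ccl5 rose in Cop1 KO by a log2 fold change of 1.42 (SE 0.07; edgeR's quasi-likelihood test, Benjamini-Hochberg adjusted p = 9.6e-26). Heatr9 had 3 counts there and none in untreated wild type, too few to tell whether it moved with Ccl5. A gene model that missed the LPS limit, Gm32650 (L of LPS 3.94), spans both and had 13.6 and 15.1 CPM with LPS and 0 in the other 4 libraries.

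Has1 lies 20882 bp from Fpr1 and 32235 bp from Fpr2, receptors for formylated bacterial peptides, whose L of Cop1 KO was 3.16 and 2.45, against 0.03 for Has1. In RefSeq, Olfr56 lies 37186 bp from the interferon-induced GTPase gene Ifi47. The GENCODE M21 models differ from these, and there 2.45% of the exonic bases of Olfr56 are shared with Ifi47 on the same strand. Ifi47 had 738 and 751 CPM with LPS, 31.3 and 31.2 CPM in Cop1 KO, and 9.17 and 11.7 CPM in untreated wild type. Olfr56 had 0.797 and 0.782 CPM in Cop1 KO and 0.378 and 0.576 CPM in untreated wild type. Both knockout libraries of each were the higher. Mir6381 (L of Cop1 KO -0.10) lies within Gbp2 (0.96), and Slc28a2 (-0.07) lies 5431 bp from the pseudogene Bambi-ps1 (0.36). For genes as low as Has1 and Olfr56, the added 1 CPM also holds L near 0, as given above.

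**Figure D4:**
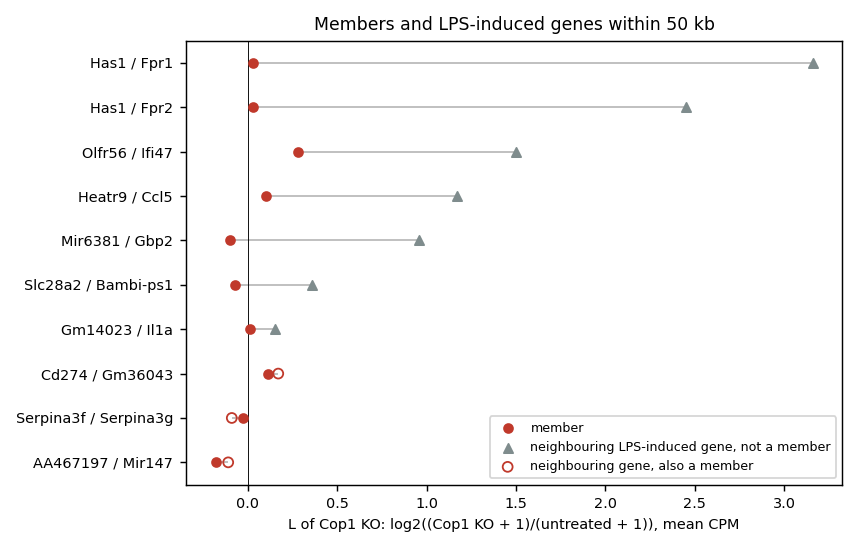
L of Cop1 KO (horizontal) for members and the LPS-induced genes within 50 kb of them; each line is a pair named as member / neighbour. Filled circles are members, triangles neighbours outside the set and open circles neighbours that are members too. The Has1 and Fpr1 pair is the widest (0.03 and 3.16). The 3 pairs of members drawn lie close together, as the window requires of members.

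Promoter sequences from RefSeq (GRCm38.p6, from 250 bases before to 50 after the start) were found for 32 of the 45 members. Matches were sought on both strands to an NF-kB consensus, the ISRE core GAAANNGAA bound by interferon-activated factors, GAS (TTCNNNGAA), AP-1 (TGANTCA), CRE (TGACGTCA), C/EBP (TTGCNNAA) and the TATA box (TATAAA); matches of different motifs may overlap. A gene counted when any of its windows held a match. The start is that of the promoter entry, which for some members, among them Heatr9, lies inside the gene's span. NF-kB matches were in 12.5% of members, 22.9% of the 83 induced genes above the knockout window with a promoter, and 12.5% of all 11471 tested genes with one. ISRE cores were in 18.8%, 37.3% and 8.78% of these sets. AP-1 matches were in 21.9%, 19.3% and 6.54%, and C/EBP matches in 25%, 16.9% and 10.1%. GAS matches were in 18.8%, 16.9% and 8.34%, TATA boxes in 15.6%, 26.5% and 9.15%, and CRE matches in 3.12%, 1.2% and 3.43%. With 32 members the exact binomial intervals are wide: 3.51% to 29% for NF-kB and 7.21% to 36.4% for the ISRE core, which overlap those of the genes above the window (14.4% to 33.4% and 27% to 48.7%). The sets also differ in base composition, with a median GC content of 52.8%, 48% and 60.3%.

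**Figure D5:**
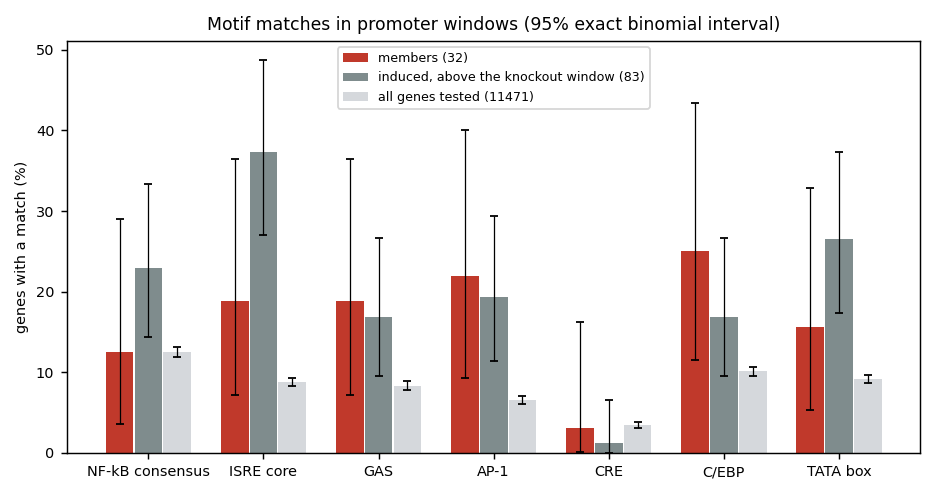
Share of genes with a motif match in their promoter window, in percent, for 32 members, 83 induced genes above the knockout window and 11471 tested genes; error bars are 95% exact binomial intervals. The ISRE core has the widest gap between induced sets (18.8% of members, 37.3% of genes above the window), and their intervals overlap.

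The 4 members with an NF-kB match were Gm14023, H2-M2, Sdc4 and Serpina3g, and those with an ISRE core were Cd274, Edn1, Ptgs2os2, Rapgef2, Serpina3f and Timd4. A few are printed to show where the matches lie, 5′ to 3′ on the gene's strand, with the match in capitals. Gm14023 (+ strand, chr2:129297213-129297369) has overlapping NF-kB matches at bases -64 to -54 from the start, and H2-M2 (- strand, chr17:37483555-37483804) has separate ones at -180 to -171 and -146 to -137. Sdc4 (- strand, chr2:164443189-164443438) has the same letters as the first of these at -82 to -73. Timd4 (+ strand, chr11:46810549-46810798) has an ISRE core at -77 to -69. The stretches end at the base before the start, and that of Gm14023 is shorter because GENCODE M21 places the bases before it in an exon of another gene.
Gm14023: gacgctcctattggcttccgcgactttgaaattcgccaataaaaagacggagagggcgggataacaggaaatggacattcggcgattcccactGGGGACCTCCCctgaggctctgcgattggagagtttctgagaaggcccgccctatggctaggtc
H2-M2: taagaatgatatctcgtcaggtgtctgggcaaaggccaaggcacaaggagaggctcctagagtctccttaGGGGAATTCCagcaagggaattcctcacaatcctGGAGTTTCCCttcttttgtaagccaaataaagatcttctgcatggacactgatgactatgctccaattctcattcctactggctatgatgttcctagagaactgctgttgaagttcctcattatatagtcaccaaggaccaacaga
Sdc4: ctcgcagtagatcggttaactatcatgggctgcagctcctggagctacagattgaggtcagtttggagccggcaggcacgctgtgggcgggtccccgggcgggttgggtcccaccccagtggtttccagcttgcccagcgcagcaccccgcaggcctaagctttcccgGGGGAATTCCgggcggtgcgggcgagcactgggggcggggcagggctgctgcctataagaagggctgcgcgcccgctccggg
Timd4: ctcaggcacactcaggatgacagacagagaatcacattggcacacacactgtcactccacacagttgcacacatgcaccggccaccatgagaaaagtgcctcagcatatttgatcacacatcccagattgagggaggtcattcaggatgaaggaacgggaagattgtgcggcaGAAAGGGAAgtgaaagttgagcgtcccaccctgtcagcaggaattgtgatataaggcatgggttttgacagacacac

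Genes of related pathways were counted in the same fits, from lists without the members. Whether these pathways act on the members was not tested. Of 29 interferon-stimulated genes all 29 rose with LPS and all 29 in Cop1 KO, with a median log2 fold change of 5.26 and 1.84; edgeR called 30.2% and 28.1% of all genes higher in these comparisons. Of 16 NF-kB subunits and inhibitors 16 rose with LPS, and in Cop1 KO 12 rose and 1 fell, with a median of 3.08 and 0.59; by file totals 14 rose and 2 fell with LPS, and 12 rose and 3 fell in Cop1 KO. Nfkbiz, a nuclear IkB protein, had 421 and 419 CPM with LPS, 32.3 and 32.8 CPM in Cop1 KO, and 15.1 and 16.8 CPM in untreated wild type. The exception was the deubiquitinase gene Tnfaip3, which fell in Cop1 KO by 0.21 on the log2 scale (SE 0.04; edgeR's quasi-likelihood test, Benjamini-Hochberg adjusted p = 1.2e-05), with 70.5 and 71.4 CPM there against 92.7 and 95.5 CPM in untreated wild type. Of 18 genes of the TLR4 receptor complex and its adaptors 10 rose and 5 fell with LPS, and 13 rose and none fell in Cop1 KO, where 16 rose with median-of-ratios factors. By file totals 8 rose and 8 fell with LPS, and 7 rose and 2 fell in Cop1 KO. Of 13 C/EBP factors and acute-phase targets 9 rose and 3 fell with LPS, and 10 rose and 1 fell in Cop1 KO; by file totals these were 8 and 5, and 8 and 1. Saa3, an acute-phase protein, had 860 and 850 CPM with LPS, 157 and 154 CPM in Cop1 KO, and 10.1 and 9.27 CPM in untreated wild type, against the Lcn2 values above.

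Enzyme lists close to single members were mixed. Of 15 prostaglandin and leukotriene genes 5 rose and 9 fell with LPS, and 6 rose and 4 fell in Cop1 KO; by file totals these were 3 and 10, and 5 and 6. Ptgs2, the inducible cyclooxygenase, had 4814 and 5147 CPM with LPS, 15.7 and 17.8 CPM in Cop1 KO, and 8.65 and 9.67 CPM in untreated wild type. Ptgs2os2, the RNA named for it, had 31.2 and 31.6 CPM with LPS and under 1 CPM in the other 4 libraries, on 5 counts in Cop1 KO and 9 in untreated wild type. Of 13 nitric oxide, arginine and itaconate genes 8 rose and 5 fell with LPS, and 5 rose and 5 fell in Cop1 KO; by file totals these were 7 and 6, and 5 and 5. Acod1, which makes itaconate, had 24.5 and 25.1 CPM in Cop1 KO against 5.67 and 4.83 CPM in untreated wild type, while Slc7a2, an arginine transporter, had 38.1 and 35.6 CPM there against 65.7 and 64.6 CPM. Of 11 Notch ligands, receptors and targets 5 rose and 5 fell with LPS, and 2 rose and 5 fell in Cop1 KO; by file totals these were 4 and 7, and 1 and 7. Of 10 genes of the COP1 ligase and its adaptors 4 rose and 3 fell with LPS, and 2 rose and 4 fell in Cop1 KO. By file totals 1 rose and 8 fell with LPS in the last list, and 1 rose and 7 fell in Cop1 KO.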

How the data were processed

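The 6 libraries were made from polyadenylated RNA of cultured mouse microglia and read as single-end 50-base reads from a TruSeq kit without strand, per the labels' protocols. The submitters' processing notes name GSNAP and the build GRCm38; the sources used here give neither a version nor the annotation. Per the file headers, the deposited count of a gene is its number of uniquely aligned reads. The deposited RPKM values (nRPKM) are scaled by gene length, depth and a sample's size factor, also per the file headers. Of 36528 Entrez identifiers 31049 took names and coordinates from RefSeq and 78 names from GENCODE M21; 5401 had none and held 1.072% to 1.304% of a library's counts. Libraries held 20568144 to 22553708 counts. No batch, pairing or numbering of replicates is labelled. Replicates differed beyond counting noise (a chi-square over its degrees of freedom of 2.472 for LPS, 1.947 for Cop1 KO and 1.579 for untreated), so all were kept.

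The selection rule used both comparisons, so members are described without tests. The members and the gene lists were chosen with earlier results of these data known. For the background and the pathway lists, counts were fitted with edgeR 4.0.16 in R 4.3.3 (limma 3.58.1; filterByExpr, TMM, glmQLFit and glmQLFTest on group means of all 6 libraries, 3 residual degrees of freedom, common dispersion 0.000732) over 15585 genes, called at a Benjamini-Hochberg adjusted p below 0.05. The fit was tested on simulated data. DESeq2 1.42.0, other scalings, filters, pseudocounts and single libraries left out were tried as alternatives. Ratios between groups carry exact 95% counting intervals, and shares exact binomial (Clopper-Pearson) ones; both cover counting error alone. A group at 0 counts was given a floor of 3 counts over the group. Tables, motif searches and figures used Python 3.11.15.

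Of the 45 members 1 is not reported here by name; it stays in all counts, sums and medians. Values in each library are given by rule for Heatr9, the 8 members with the highest mean nRPKM and the 8 with the largest L of LPS, those nearest each limit, and list members; further members were added. Of each list, up to 4 other genes with the smallest p in the LPS comparison could be named, and up to 8 of the genes left out by name. Neighbours are LPS-induced genes within 50 kb, and they, with overlapping genes, were named after their values were seen. Exon overlaps come from GENCODE M21. Promoter and microRNA sequences were available in RefSeq's tables for 32 and 2 members; the promoters of the other 13 were not used here.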

Additional observations from a re-analysis of the deposited data

How the results depend on the processing

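No member was called in opposite directions by edgeR or DESeq2 under the alternatives. With file totals alone 1002 genes called with LPS and 50 called in Cop1 KO were called the opposite way, 8 and 0 of them in the pathway lists; 2 and 1 genes called with LPS did so with median-of-ratios factors and in the fit of the 2 groups compared. The median L of Cop1 KO, close to 0, changed sign under other scalings. Of 178 alternative values 152 stayed close to the main value and 26 moved, and the cause was not tested. Close meant within the replicate spread for medians and within 1.5 times of the main count for counts. For motif shares it meant inside the exact binomial interval of the main share, which is wide. The rule gave 47 genes with TMM-scaled CPM (36 shared with the 45), 47 with median-of-ratios factors (31 shared), 36 with the deposited nRPKM (24 shared), 41 and 43 with 0.5 and 2 CPM added (39 and 36 shared), and 38 with a minimum of 40 CPM. Without single libraries it gave 42 to 45. With TMM scaling 9 of the 45 members, and with median-of-ratios scaling 14, lay above the knockout window.

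The median L of LPS over the members was 5.28 (TMM), 5.36 (median of ratios), 4.70 (nRPKM), 5.30 (0.5 CPM added) and 4.32 (2 CPM added), and 4.88 to 4.94 without single libraries. The median L of Cop1 KO was 0.06 (TMM), 0.08 (median of ratios and nRPKM), and -0.03 to 0.00 without single libraries.

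With file totals alone edgeR called 2679 genes higher and 10766 lower with LPS, in place of 4714 and 6764, and 2321 higher and 7195 lower in Cop1 KO, in place of 4375 and 4720. Pathway genes called lower were then 46 with LPS, in place of 30 of 124, and 31 in Cop1 KO, in place of 20. Members called in Cop1 KO were 7 higher and 6 lower, in place of 13 and 2. With median-of-ratios factors, DESeq2 or a fit of the 2 groups compared alone, 1 member was called lower; the last of these called 9 higher. Without single libraries the calls were 4466 to 4822 higher and 6198 to 6935 lower with LPS, 3632 to 4514 higher and 4073 to 4881 lower in Cop1 KO, and 10 to 14 members higher and 1 to 2 lower in Cop1 KO. No paired analysis was possible because the labels give no replicate numbers.

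Depth limits the knockout comparison for the 19 members under 1 CPM in both groups without LPS, where ratios rest on few counts. With 2 libraries a group, the spread is poorly known.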

Other observations

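The 14 LPS-high genes below the knockout window were not members, and their names were chosen after their values were seen. Ccl22, a chemokine that draws T cells, averaged 346 CPM with LPS, 0.162 CPM in Cop1 KO and 3.1 CPM in untreated wild type. Vcam1, the adhesion ligand of VLA-4, averaged 425, 0.765 and 5.08 CPM in the same order, and Il1rn, the interleukin-1 receptor antagonist, 3111, 41.3 and 144 CPM. Cd38, an enzyme that consumes NAD, averaged 155 CPM with LPS, 1.25 CPM in Cop1 KO and 7.81 CPM in untreated wild type. Adora2b, the low-affinity adenosine receptor, averaged 48.3, 0.905 and 1.79 CPM, so it lay just outside the window while its paralog Adora2a, at 113 CPM with LPS, lay inside. Ccl2 averaged 1260 CPM with LPS, 10.3 CPM in Cop1 KO and 32.1 CPM in untreated wild type.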
